A study of Rattus norvegicus with 210 samples.

Results

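The comparison was that of the preoptic area (POA) at postnatal day (PND) 90 in female rats whose dams had received ketoconazole (KTZ) at 6 mg/kg bw/day (K6) and in females whose dams had received vehicle (control). Its members were the 5 POA libraries of K6 and the 5 of control, 10 of the 210 libraries of the series, chosen by their labels for tissue, age and exposure. KTZ is an antifungal agent that inhibits enzymes of steroid synthesis, and the study asked whether perinatal exposure to it alters the hypothalamic network that governs the release of gonadotropin-releasing hormone (GnRH). All were Sprague-Dawley rats of 90 days, and no rat number occurs in more than 1 of the 10 libraries. The number of control replicate 1, 101, is also on PND22 libraries of KTZ at 3 mg/kg bw/day. That of K6 replicate 1, 112, is also on PND22 libraries of KTZ at 12 mg/kg bw/day. Dams in K6 and control were gavaged once daily from gestational day 7 to PND22, the control dams with corn oil alone. Other groups used here had the same schedule: K3 and K12 with KTZ at 3 and 12 mg/kg bw/day, and D3, D6 and D12 with diethylstilbestrol (DES), a synthetic estrogen, at 3, 6 and 12 µg/kg bw/day. Each had 5 libraries of the POA and 5 of the mediobasal hypothalamus (MBH) at PND90. Control rats of PND42, with 5 libraries of each tissue, served as a further regional reference, and DES rats of PND42 served for an age axis.

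The POA lies in front of the hypothalamus proper, around the front of the ventricle, and in rats holds most cell bodies of GnRH neurons together with basal forebrain cell groups marked by Lhx6 and Lhx8. The MBH holds the arcuate and ventromedial nuclei, and a block of it cut back to the mammillary bodies also takes in the histamine neurons of the tuberomammillary nucleus and the peptide neurons of the lateral hypothalamus. Transcripts of these cell groups therefore tell which region a dissected piece of tissue contains. In such bulk samples, fewer cells of a type and less RNA per cell cannot be told apart.

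Reads counted on genes numbered 20429434, 21244664, 22964418, 21449506 and 18083267 in K6 replicates 1 to 5, and 20687509, 20273361, 16856857, 20001209 and 18998172 in control. No 2 K6 or control libraries agreed within sampling noise. Levels are in CPM, counts scaled to a common library total, given per library or as the mean ± SD of 5 libraries where an error is given, and changes are log2 fold changes with their standard error (SE).

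Before any comparison, the regional transcripts were read in each library, and they divided the K6 group. Foxb1, a transcription factor of the mammillary bodies, stood at 1.91 CPM in K6 replicate 1 and at 16.8, 10.5, 13.3 and 10.9 CPM in replicates 2 to 5. Control libraries had 2.37, 3.21, 1.6, 2.05 and 4.42 CPM, and MBH control libraries between 10.3 and 13.3 CPM. Lmx1a, another mammillary and posterior hypothalamic factor, stood at 0.881 CPM in K6 replicate 1 and between 9.79 and 12.4 CPM in the other 4, against 0.237 to 0.7 CPM in control. Hdc, which encodes the enzyme that makes histamine, stood at 4.11 CPM in replicate 1 and at 141, 117, 126 and 121 CPM in replicates 2 to 5. For Hdc, control libraries had 3.96, 2.81, 1.66, 1.45 and 4.05 CPM. Pmch, the precursor of melanin-concentrating hormone of the lateral hypothalamus, stood at 4.41 CPM in replicate 1 and at 1048, 1053, 1393 and 1043 CPM in the others. Control had 1.64, 2.55, 3.5 and 3.9 CPM of Pmch, with the library of replicate 2 at 141 CPM. For each of these 4 transcripts, K6 replicates 2 to 5 lay above every control library of the POA. K6 replicate 1 lay inside the control range for Foxb1 and Pmch, and just above its highest value for Lmx1a and Hdc.

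**Figure D1:**
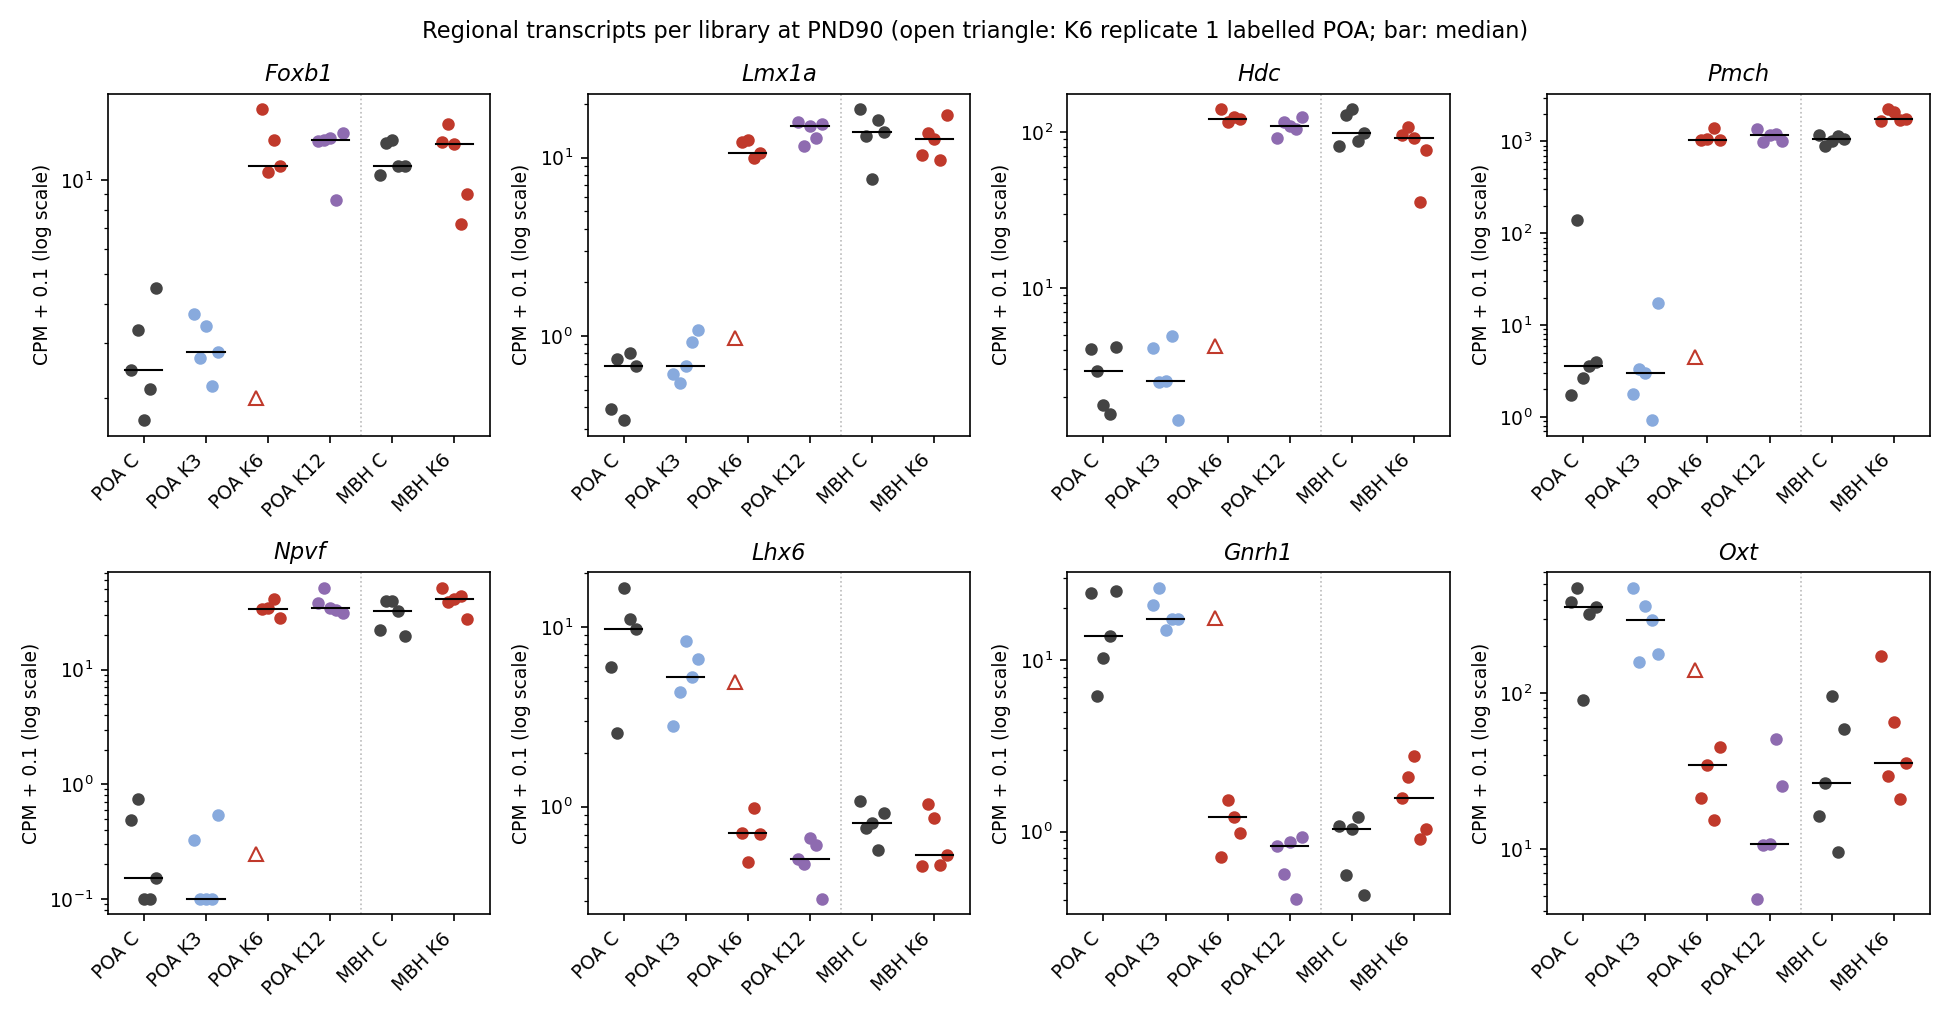
CPM, with 0.1 added, on a logarithmic axis for 8 regional transcripts in each library of 6 groups at PND90; points are libraries, bars are group medians, tissues are as labelled and the open triangle is K6 replicate 1 labelled POA. In every panel the triangle lies with or near POA control and POA K3, and the other 4 K6 libraries lie near the K12 libraries labelled POA and the MBH groups.

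Transcripts of the POA and the basal forebrain split the same 5 libraries in the opposite direction. Lhx6, a transcription factor of forebrain interneurons, stood at 4.85 CPM in K6 replicate 1 and between 0.392 and 0.886 CPM in replicates 2 to 5, against 2.47 to 16.4 CPM in control and 0.473 to 0.981 CPM in MBH control. Gnrh1, which encodes GnRH itself, stood at 17.6 CPM in replicate 1 and at 0.612, 1.44, 1.12 and 0.885 CPM in replicates 2 to 5. Control libraries had 24.6, 6.12, 10.1, 13.7 and 25.2 CPM of Gnrh1, and MBH control libraries at most 1.12 CPM. The labelled tissue of K6 replicates 2 to 5 was thus not borne out by its defining transcripts, and these 4 are called libraries labelled POA in what follows.

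A regional axis put the division into one value per library. It was the mean log2 level of the 100 genes most abundant in MBH relative to POA in D3 rats, less that of the 100 genes most abundant in POA. POA control lay between -2.57 and -1.77, and MBH control between 1.34 and 1.64. K6 replicate 1 lay at -1.93, and replicates 2 to 5 lay at 1.71, 1.55, 1.36 and 1.46. The 5 libraries of K12 labelled POA lay between 1.44 and 2.01, and those of K3 between -2.46 and -1.96. K6 replicates 2 to 5 therefore fell inside the range that MBH control and K12 spanned together. The mammillary score, the mean log2 CPM of a list of mammillary genes, was -0.427 in K6 replicate 1 and between 1.37 and 1.61 in the others, against -0.52 to -0.22 in control. MBH libraries of the K6 rats scored between 1.51 and 1.94 on the mammillary list but between -0.65 and 0.29 on the regional axis, below MBH control. The 100 MBH-high genes of the axis hold 11 collagen genes, 3 genes of the blood list and 4 of the leptomeningeal list, and the 100 POA-high genes hold none of these. The leptomeningeal list summed to 22.1 to 197 CPM in the MBH of K6 rats and to 259.7 to 406 CPM in MBH control. On the POA-high genes alone, the mean log2 level was 3.34 to 3.84 in POA control, 2.17 to 2.34 in MBH control, 3.496 in K6 replicate 1 and 2.15 to 2.29 in replicates 2 to 5. In the MBH of K6 rats it was 2.73 to 2.89, above every MBH control library. In the D3 reference itself, MBH D3 replicate 2 had a mammillary score of 0.63 and the other MBH D3 libraries 1.33 to 1.80, while its regional axis of 1.75 lay among theirs. Among the other DES rats of PND90, POA D6 replicate 2 lay at 0.97 on the regional axis and the other POA D6 libraries between -2.32 and -1.89, while MBH D12 replicates 3 to 5 lay between -0.44 and -0.39 and replicates 1 and 2 at 1.04 and 1.26. Among the DES libraries of PND42, POA D6 replicate 4 lay at 0.14 and scored 1.20 on the mammillary list. On an age axis built from PND90 and PND42 libraries of DES rats, K6 replicates 2 to 5 lay between 0.18 and 0.49, replicate 1 at -0.47, control between -1.17 and -0.32 and MBH control between -0.25 and 0.44. Without the 5 DES libraries that stand apart, K6 replicates 2 to 5 lay between 0.83 and 1.22 on it, replicate 1 at -0.035, control between -0.96 and 0.21 and MBH control between 0.53 and 1.16.

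**Figure D2:**
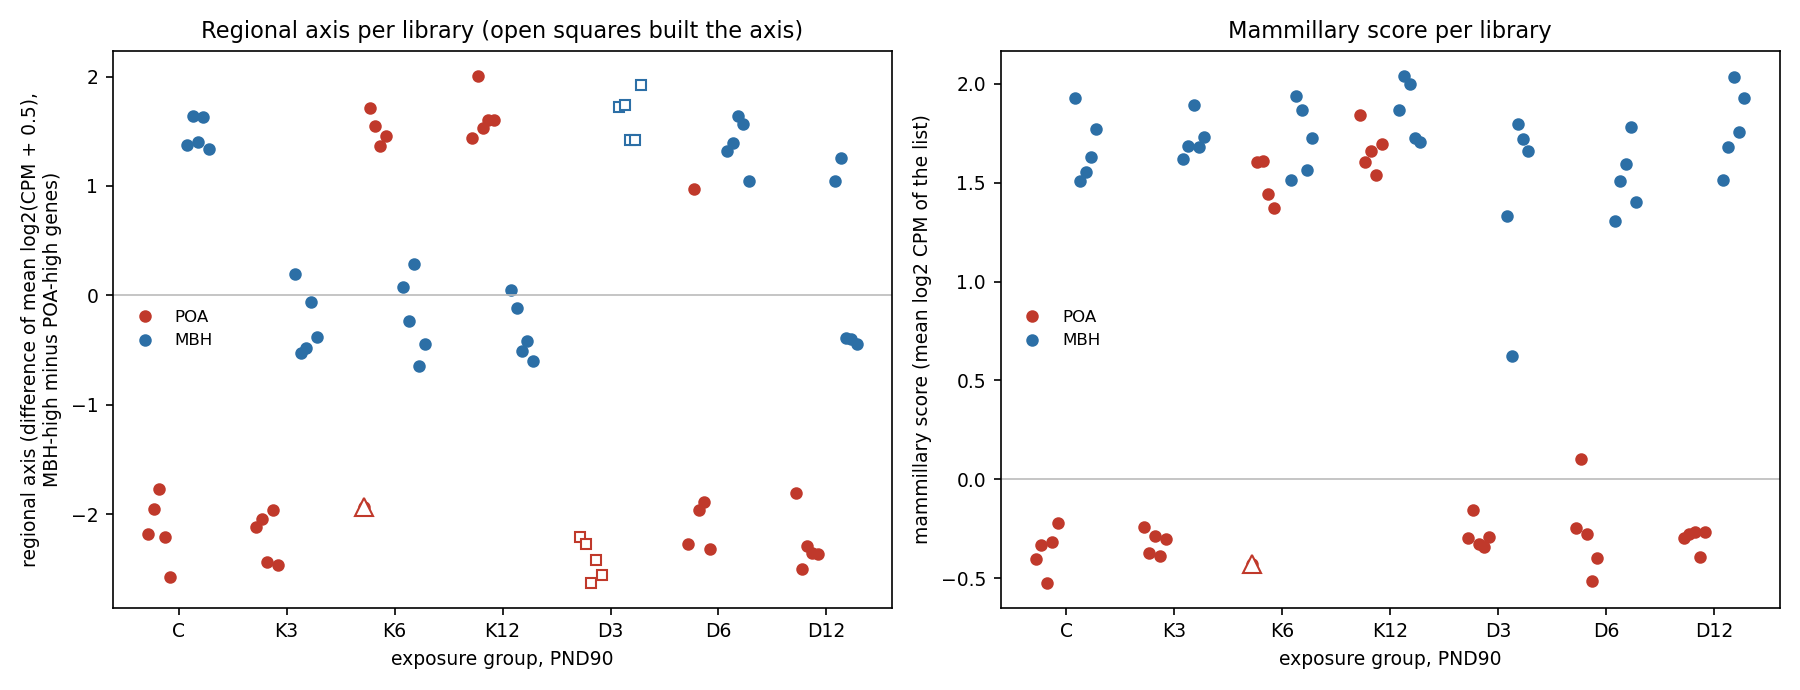
Regional axis (left) and mammillary score (right) of each PND90 library by exposure group, both in log2 units, with libraries labelled POA in red and libraries labelled MBH in blue; the open triangle is K6 replicate 1 labelled POA and open squares are the D3 libraries that built the regional axis. K6 replicates 2 to 5 lie between 1.36 and 1.71 on the axis, at the level of MBH control, and replicate 1 lies at -1.93 among the POA libraries.

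Transcripts that are on or off by rat could have tied a POA library to the MBH library of its rat. Over all 210 libraries, 10 genes left an empty gap of at least 2 log2 units, but none of them agreed between the tissues in 90% of the 45 DES rats, the highest value being 86.7%. The libraries could therefore not be assigned to rats from their transcripts, and how the labels and the libraries came to differ was not tested.

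In the test of 5 K6 against 5 control libraries, 1958 of 14693 genes were called at an adjusted p under 0.05 (edgeR's quasi-likelihood test, Benjamini-Hochberg), which is 13.3% of the genes tested. Of these, 924 were higher in K6 (6.29%) and 1034 were lower (7.04%). Which direction held more calls depended on the scaling, with 987 higher and 964 lower under the median-of-ratios size factors of DESeq2 in the same test. DESeq2 itself gave 2844 calls, 1442 higher and 1402 lower, among them 1955 of the 1958. Leaving out K6 replicate 1 gave 3674 calls, among them 1938 of the 1958. K6 replicate 1 alone against control gave 2 calls of 15371 genes (0.013%), with 1023 genes at an unadjusted p under 0.05. That fit holds a single K6 library, which is assumed to vary like the control libraries. Leaving out control replicate 4 or 5, or any 1 of K6 replicates 2 to 5, gave 878 to 1142 calls. Over the 1958 called genes, K6 replicates 2 to 5 all lay outside the control range for 85.8%, compared with 22.65% of all genes tested, and replicate 1 lay inside it for 39.7%, compared with 61.8%.

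To see which changes follow region, the calls were set beside MBH against POA in the D3 rats, which share no library with K6 or control. In D3 rats 4422 of 14698 genes were called (30.1%), 2303 higher in the MBH (15.7%) and 2119 higher in the POA (14.4%). A K6 call was said to follow region where the gene was called in both comparisons with the same sign. Of the 1958 calls, 1566 followed region (79.98%, 95% Wilson interval 78.2 to 81.7%), and none was called in both with opposite signs. The interval covers counting error only and takes genes of the same libraries as independent. Leaving out 1 library of K6 or control gave shares of 73.9 to 85.99%. Without MBH D3 replicate 2, left out after its mammillary score was seen, 77.83% followed region, again with none of opposite sign. The 1566 were 797 of the 924 higher genes (86.3%) and 769 of the 1034 lower genes (74.4%), against 15.3% and 14.4% of all genes tested that were MBH-high and POA-high. The genes that followed region made up 35.4% of the regional calls. With D6 rats as the reference, which called 333 genes between the tissues, the share of K6 calls that followed region was 11.49%. Without POA D6 replicate 2, left out after its regional axis was seen, D6 rats called 3091 genes and the share was 67.26%, with none of opposite sign. With control rats of PND42, which called 437 genes, it was 7.05%, and 14 calls had the opposite sign. MBH control libraries of PND42 lay between 0.03 and 0.79 on the regional axis, below the 1.34 to 1.64 of MBH control of PND90. Of the 12735 genes not called in K6, 22.0% had a regional call in either direction. In replicate 1 alone the median change of the 797 higher genes was 0.16 and that of the 769 lower genes -0.32, against 0.60 and -0.47 with all 5 K6 libraries. Replicate 1 took part in choosing these genes. Without K6 replicate 1, 2715 of 3674 calls followed region (73.9%), and of the 2 calls of replicate 1 alone, neither did.

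The remaining calls had no regional call in D3 rats, and 381 of them had been tested there. Their fold changes had the sign of the regional difference in 365 cases (95.8%). Over all calls with a value, 99.2% shared the sign of MBH against POA in D3 rats, compared with 78.7% of the genes not called. The same share was 89.4% with D6 rats and 85.6% with D12 rats as the reference, compared with 63.3% and 62.1% of genes not called. Without POA D6 replicate 2 it was 98.6%, compared with 74.1%, and without MBH D12 replicates 3 to 5 it was 97.95%, compared with 73.4%. With control rats of PND42 it was 54.1%, compared with 53.4%. The D6, D12 and PND42 references called 333, 445 and 437 genes between the tissues, and those without the libraries that stand apart 3091 (D6) and 1643 (D12).

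**Figure D3:**
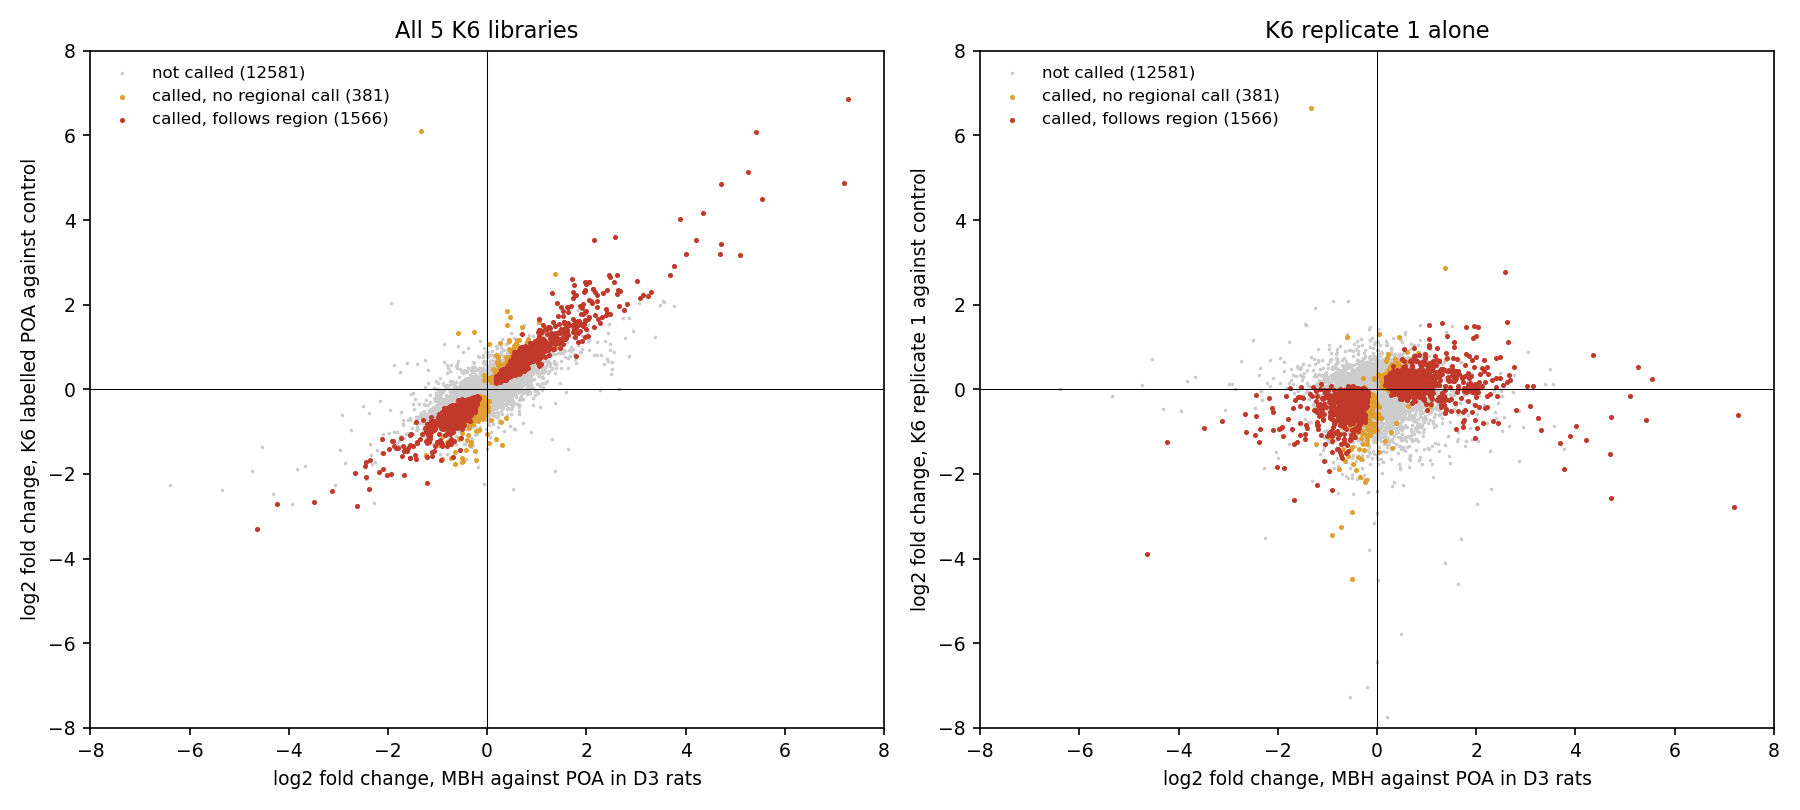
Log2 fold change of each gene in the 5 K6 libraries labelled POA against control (left) or in K6 replicate 1 alone against control (right), plotted against its log2 fold change in MBH against POA of D3 rats; colours on both sides are the calls of the test with 5 K6 libraries, and 3 genes lie outside the right panel. On the left the 1566 calls that follow region lie along the diagonal, and on the right the medians of these genes are 0.16 for the 797 higher and -0.32 for the 769 lower, against 0.60 and -0.47 on the left.

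Genes of the lateral and posterior hypothalamus were among those that followed region upwards. Npvf, which encodes the RFamide-related peptides that act on GnRH neurons, rose by 6.86 (SE 1.09, adjusted p = 0.0063), from 0.387, 0.641, 0, 0 and 0.0526 CPM in control to 33.8, 34.4, 41.0 and 28.4 CPM in K6 replicates 2 to 5. Replicate 1 stood at 0.147 CPM, inside the control range. Hdc rose by 5.14 (SE 0.73, adjusted p = 0.0046), Pmch by 4.87 (SE 1.42, adjusted p = 0.042) and Lmx1a by 4.16 (SE 0.60, adjusted p = 0.0047). Hcrt, the precursor of the orexins, rose by 4.49 (SE 0.69, adjusted p = 0.0061), and Foxb1 by 1.92 (SE 0.45, adjusted p = 0.019). The difference of MBH from POA in D3 rats was 7.28 for Npvf, 5.27 for Hdc, 7.19 for Pmch, 4.35 for Lmx1a, 5.54 for Hcrt and 1.91 for Foxb1. Without MBH D3 replicate 2 it was 2.14 for Foxb1 and 4.62 for Lmx1a. Against control, K6 replicate 1 alone gave 0.53 for Hdc (SE 0.56), 0.81 for Lmx1a (SE 0.65), 0.24 for Hcrt (SE 0.65), -0.55 for Foxb1 (SE 0.56), -2.79 for Pmch (SE 2.71) and -0.60 for Npvf (SE 1.83), none of them called. Leaving out control replicate 2, the library with 141 CPM of Pmch, raised the change of Pmch to 8.25. The call of Pmch was lost in 8 of the 10 repeats that each left out 1 library, and held without that library or without K6 replicate 1. The call of Foxb1 was lost in 2, without control replicate 4 and without K6 replicate 2.

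Alox15, a lipoxygenase also made in young red cells, rose by 4.86 (SE 0.80, adjusted p = 0.0070). It stood at 0.979 CPM in K6 replicate 1 and at 53.0, 61.4, 32.2 and 79.7 CPM in replicates 2 to 5, against 0.771 to 2.17 CPM in control. MBH control had 27.7 to 85.5 CPM of it, but the MBH of K6 rats had 0.555 to 1.06 CPM, so this transcript separated MBH libraries from each other as well. The transcripts of red blood cells moved with it. All 5 tested genes of that list rose, by 2.30 to 4.02, compared with 6.29% of all genes tested that were higher. The list's sum was 136, 1420, 2030, 1213 and 1860 CPM in K6 replicates 1 to 5, against 150 to 341 CPM in control and 708 to 1758 CPM in MBH control. In the MBH of K6 rats it was 115 to 354 CPM. Its most abundant gene was Hba-a1, and none of the list's genes in the files was at 0 in all 10 libraries. The part of blood in the other changes was not tested. Counts of hemoglobin genes, which have near-identical copies, are uncertain.

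The promoters of 3 of these genes are given because the genes rose together in K6 replicates 2 to 5. They are the 250 bases before the transcription start from RefSeq (assembly GRCr8, another build than that of the counts), 5′ to 3′ on the gene's strand. Capitals mark TATAAA, the core of the TATA box, searched on both strands.
Hdc, chr3:134318705-134318954, minus strand: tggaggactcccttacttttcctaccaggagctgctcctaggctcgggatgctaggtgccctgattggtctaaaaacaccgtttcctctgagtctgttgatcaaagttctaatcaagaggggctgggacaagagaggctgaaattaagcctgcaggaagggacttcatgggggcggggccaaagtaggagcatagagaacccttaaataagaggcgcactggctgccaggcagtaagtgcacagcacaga
Npvf, chr4:81047046-81047295, minus strand: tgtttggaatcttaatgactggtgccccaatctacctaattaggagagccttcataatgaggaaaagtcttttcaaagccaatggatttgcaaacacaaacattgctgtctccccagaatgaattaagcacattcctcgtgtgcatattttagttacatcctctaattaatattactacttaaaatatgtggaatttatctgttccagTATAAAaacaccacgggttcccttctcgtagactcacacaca
Hcrt, chr10:86191525-86191774, minus strand: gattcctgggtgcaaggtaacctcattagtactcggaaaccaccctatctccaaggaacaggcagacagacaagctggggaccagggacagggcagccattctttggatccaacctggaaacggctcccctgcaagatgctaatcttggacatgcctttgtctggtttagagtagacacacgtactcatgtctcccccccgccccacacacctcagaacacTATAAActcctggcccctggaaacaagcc

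Npvf held TATAAA 42 bases before its start and Hcrt 29 bases before it, as did 12.9% of the 33469 promoters of the table anywhere in the same window. The letters were not found in the window of Hdc. These matches describe the sequences and say nothing of which factor acts there.

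Genes of the POA and its surroundings were among those that followed region downwards. Slc18a3, the vesicular acetylcholine transporter, fell by 2.77 (SE 0.81, adjusted p = 0.041), from 6.82, 1.43, 33.3, 17.1 and 14.9 CPM in control to 1.18, 0.697, 1.12 and 0.608 CPM in K6 replicates 2 to 5, with replicate 1 at 7.39 CPM. The 4 libraries lay below every control library and replicate 1 among them. Lhx6 fell by 2.66 (SE 0.67, adjusted p = 0.024). Oxt, the precursor of oxytocin, fell by 2.70 (SE 0.59, adjusted p = 0.015), from 387, 477, 90.7, 323 and 359 CPM to 21.2, 34.4, 15.3 and 45.4 CPM in replicates 2 to 5. Its level in replicate 1 was 141 CPM, inside the control range. Vip, a peptide of the suprachiasmatic nucleus above the optic chiasm, fell by 2.35 (SE 0.47, adjusted p = 0.012), and here replicate 1, at 8.08 CPM, also lay inside the control range of 7.77 to 33.0 CPM. Hspa1b, a heat shock protein induced by stress, fell by 3.29 (SE 0.82, adjusted p = 0.023), from 1.26, 0.543, 5.10, 13.6 and 1.58 CPM to between 0.235 and 0.932 CPM in all 5 K6 libraries, replicate 1 included. The groups overlapped at control replicate 2, and MBH control reached 0.763 CPM. The MBH of K6 rats had 0.431 to 4.87 CPM of Hspa1b. MBH minus POA in the K6 rats was 2.58 (SE 0.59), called and opposite in sign to the -4.64 of D3 rats. The calls of Slc18a3, Lhx6 and Hspa1b were lost in 8, 6 and 4 of the 10 repeats that each left out 1 library. Without K6 replicate 1 the changes were -4.04 for Slc18a3, -3.88 for Lhx6, -3.54 for Oxt, -2.82 for Vip and -3.18 for Hspa1b.

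The marker lists were counted next, against the 6.29% of all genes tested that were higher and the 7.04% that were lower. Of 7 tested genes of the tuberomammillary nucleus and lateral hypothalamus, 6 rose and all 6 followed region, among them Slc18a2, the monoamine transporter of vesicles (2.55, SE 0.44), and Cartpt (1.53, SE 0.39). The list's median change was 4.49, compared with -0.01 over all genes tested, and in K6 replicate 1 alone it was 0.08. Of 8 arcuate genes, 5 rose and followed region, led by Pomc, the precursor of melanocortins (3.54, SE 0.68), and Agrp, its functional opponent in feeding (3.19, SE 0.67). The other 3 were not called and had negative differences, -0.65 for Tac3, the neurokinin B gene (SE 0.25), -0.59 for Prlr, the prolactin receptor gene (SE 0.33), and -0.30 for Otp (SE 0.35). In D3 rats the difference of MBH from POA in Tac3 was -0.92, with a call. Of 6 genes of the ventromedial nucleus, 5 rose, including Slc17a6, a vesicular glutamate transporter (1.001, SE 0.22), and Fezf1, a transcription factor of that nucleus (1.59, SE 0.38). Of the 4 tested mammillary genes, Foxb1 and Lmx1a rose, and the other 2, Uncx and Irx5, were not called. Of 14 genes of the POA and basal forebrain none rose and 5 fell, 4 of them following region: Zic1 (-2.08, SE 0.47), Zic4, Zic2 and Lhx6. The fifth, Nkx6-2 (-0.71, SE 0.17), had no regional call. Lhx8 and Chat in that list had changes of -2.26 and -2.47 and were not called with all 5 K6 libraries. In replicate 1 alone they differed from control by 0.01 and -0.45.

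**Figure D4:**
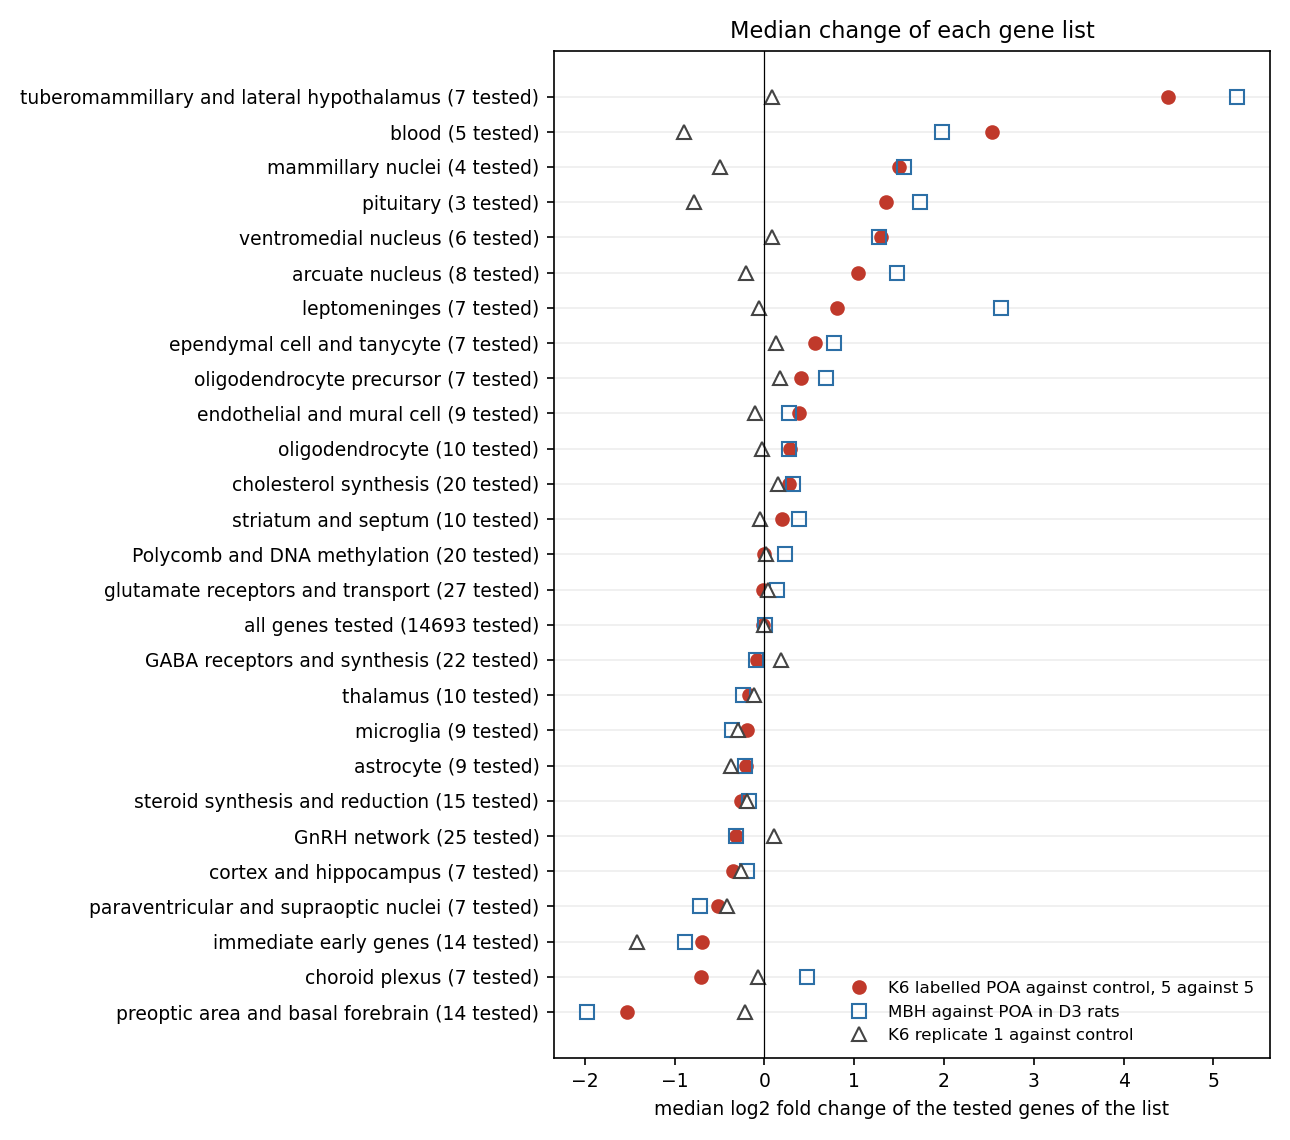
Median log2 fold change of the tested genes of each list in the 5 K6 libraries labelled POA against control (red circles), in MBH against POA of D3 rats (blue squares) and in K6 replicate 1 alone against control (open triangles). The circle and the square of the tuberomammillary list lie at 4.49 and 5.27 with the triangle at 0.08, and those of the POA and basal forebrain list lie at -1.53 and -1.98 with the triangle at -0.22.

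Of the 10 genes of the striatum and septum list, 2 rose (Tac1 and Gpr6), and of the 7 tested genes of cortex and hippocampus 1 rose (Prox1), which are 20% and 14.3% of the lists against 13.3% of all genes tested. In the thalamus list 3 genes rose (Calb2, Slc17a6 and Lef1) and 3 fell (Gbx2, Prkcd and Ptpn3), all 6 following region. These are 60% of the list. In the paraventricular and supraoptic list 1 of 7 genes was called, Oxt, which is 14.3% of the list. Avp, the precursor of vasopressin, differed by -1.72 (SE 0.54, adjusted p = 0.052). Avp was low in K6 replicate 1 too, at 8.03 CPM, while control replicate 3 stood at 11.5 CPM and the other control libraries between 81.2 and 147 CPM. It was called without control replicate 3, and only just without K6 replicate 1 (-1.49, adjusted p = 0.04998).

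Among 25 tested genes of the GnRH network, 6 rose, 19 were not called and none fell, and all 6 followed region. The 6 are 24% of the list, against 13.3% of all genes tested. They were Npvf, Fezf1, Pdyn (1.28, SE 0.31), which encodes dynorphin, Th (1.21, SE 0.31), which encodes tyrosine hydroxylase, Mkrn3 (1.20, SE 0.24), a puberty gene of the ubiquitin pathway, and Igsf10 (0.77, SE 0.18). The median change of the network was -0.32, and 0.11 in replicate 1 alone. Gnrh1 differed by -1.92 (SE 0.82, adjusted p = 0.134) with all 5 K6 libraries and by -3.999 (adjusted p = 0.00021) without replicate 1, while replicate 1 alone differed from control by 0.11 (SE 0.65). In D3 rats the MBH was lower than the POA in Gnrh1 by 4.74. Esr1, the estrogen receptor α gene, stood at 36.5, 15.1, 11.7, 10.9 and 11.4 CPM in K6 and between 16.1 and 38.4 CPM in control, a difference of -0.70 (SE 0.34, adjusted p = 0.187). It was called without replicate 1 (-1.19, adjusted p = 0.0026). The progesterone receptor gene Pgr (-0.55) and Cyp19a1 (-1.07), which encodes aromatase, likewise missed the threshold with replicate 1 and passed it without. Without replicate 1 the changes were -0.76 for Pgr (adjusted p = 0.021) and -1.75 for Cyp19a1 (adjusted p = 0.0060). Kiss1, the kisspeptin gene, stood at 2.79, 1.74, 0.914, 1.26 and 0.774 CPM in K6 and at 11.0, 3.6, 1.84, 2.9 and 1.84 CPM in control, a difference of -1.53 (SE 0.52, adjusted p = 0.071), and was called without K6 replicate 1 (adjusted p = 0.027) or without control replicate 3. Without control replicate 1, its highest library, the difference was -0.78. Mkrn3 stood at 1.86 CPM in K6 replicate 1 and between 2.71 and 4.05 CPM in the others, against 1.10 to 1.78 CPM in control and 2.49 to 4.24 CPM in MBH control.

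KTZ inhibits sterol 14α-demethylase, the product of Cyp51, so genes of cholesterol synthesis were counted as well. Of 20 tested, 8 rose and 1 fell, and all 8 that rose followed region. The calls are 45% of the list, against 13.3% of all genes tested. Idi1, an isomerase of the isoprenoid steps, stood at 43.6, 71.9, 64.2, 70.4 and 70.9 CPM in K6 and at 37.6, 33.5, 38.9, 43.95 and 36.9 CPM in control. Replicate 1 lay just under the highest control library and the other 4 above all of them. MBH control had 54.8 to 89.4 CPM. Idi1 rose by 0.72 (SE 0.13, adjusted p = 0.0077), and MBH exceeded POA by 0.67 in D3 rats. Hmgcs1, an early enzyme of the pathway, rose by 0.57 (SE 0.09), and Sqle, which makes squalene epoxide, by 0.55 (SE 0.09). Srebf2, a transcription factor that drives the pathway, fell by 0.19 (SE 0.055, adjusted p = 0.039) with no regional call. Cyp51 itself differed by 0.30 (SE 0.11, adjusted p = 0.076), with 177 CPM in replicate 1 and 255 to 282 CPM in the others, against 188 to 205 CPM in control. It was called without replicate 1 (0.40, adjusted p = 0.00046). In the list of steroid synthesis and reduction, 3 of 15 genes fell, all following region: Tspo (-1.05, SE 0.23), Hsd11b1 (-0.43, SE 0.12) and Cyp46a1 (-0.39, SE 0.08). None rose, so that 20% of that list was called.

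Genes of synaptic signalling and of chromatin were counted in the same way. Of 22 genes of GABA signalling, 3 rose (Gabre, Gabra5 and Gabrq) and 2 fell, Slc32a1, the vesicular GABA transporter (-0.93, SE 0.15), and Abat, which breaks GABA down (-0.48, SE 0.09). Of 27 genes of glutamate signalling, Slc17a6 and Grm8 rose and Grm3 fell, 11.1% of the list against 13.3% of all genes tested. Of 20 genes of Polycomb and DNA methylation, Ezh2 (0.89, SE 0.25), Cbx8 and Jarid2 rose, and Cbx7 (-0.55, SE 0.13) and Bmi1 fell. All of these calls except Bmi1 followed region. The calls are 22.7% of the GABA list and 25% of the Polycomb list. Of 14 immediate early genes, 3 fell, Arc, Junb and Egr3 (21.4% of the list), and none rose. Their median change was -0.69 with all 5 K6 libraries and -1.42 in replicate 1 alone.

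Markers of other cell types were called too. Among 10 oligodendrocyte genes 5 rose, among them the myelin genes Cldn11 (0.63, SE 0.16) and Cnp (0.60, SE 0.13), and the list's sum was 12830 CPM in K6 replicate 1 and 17080 to 19410 CPM in the others, against 12370 to 16600 CPM in control. Its most abundant gene was Mbp. Of 7 precursor genes 4 rose, led by Bmp4 (2.04, SE 0.54), Enpp6 and Gpr17. Of 9 endothelial and mural genes, Kdr (1.15, SE 0.16), Pdgfrb, Kcnj8 and Slco1c1 rose and Slc2a1 fell. In the oligodendrocyte, precursor and endothelial lists 50%, 57.1% and 55.6% of genes were called. Astrocyte genes showed 1 call of 9, S100b (-0.57, SE 0.13), and microglial genes 2 of 9, C1qa and Trem2, all lower. These are 11.1% and 22.2% of the lists, against 13.3% of all genes tested. Of 7 ependymal and tanycyte genes 1 rose (Scn7a), and of 7 choroid plexus genes 1 rose (Slc4a5), each 14.3% of its list. The median difference of the choroid plexus list was -0.71 and its most abundant gene was Clic6 (-0.74, SE 0.26, adjusted p = 0.077). Its sum was 16.0 to 23.1 CPM in K6 and 23.4 to 42.5 CPM in control. None of the 7 leptomeningeal genes was called, with sums of 74.9, 445, 319, 206 and 371 CPM in K6 and 21.1 to 226 CPM in control, and the most abundant was Igf2. Of the 3 tested pituitary genes, Pomc, also in the arcuate list, and Tbx19 rose. The sum of that list was 10.6 CPM in K6 replicate 1, 35.3 to 84.2 CPM in the others and 8.30 to 39.0 CPM in control. The part of each cell type in the regional changes was not tested.

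The genes called in K6 but not between the tissues of D3 rats were read separately. The 5 largest named increases with a difference under 0.25 between the tissues of D3 rats were those of Flvcr2, a choline transporter (0.81, SE 0.24), Smtnl2 (0.78, SE 0.21), Ypel1 (0.77, SE 0.19), Bend7 (0.68, SE 0.15) and Esam, an adhesion molecule of endothelium (0.63, SE 0.13). Esam stood at 17.9, 23.5, 25.9, 24.8 and 28.3 CPM in K6 and at 13.9, 12.8, 15.1, 18.2 and 15.8 CPM in control, so that replicate 1 lay below the highest control library. The 5 largest decreases were those of Neurl1b (-1.66, SE 0.32), an E3 ubiquitin ligase, Smim13 (-1.27, SE 0.28), Ankrd9 (-0.76, SE 0.20), Mpv17l (-0.74, SE 0.22) and Celf4 (-0.72, SE 0.12), an RNA-binding protein of neurons. Celf4 stood at 58.2, 82.6, 81.2, 76.9 and 67.5 CPM in K6 and at 99.1, 101, 140, 134 and 118 CPM in control. Here K6 replicate 1 was the lowest of all 10 libraries, and the groups did not overlap. The groups did not overlap for Neurl1b either, with 0.653 to 1.32 CPM in K6 and 1.84 to 4.57 CPM in control. MBH control overlapped both groups, with 77.8 to 114 CPM of Celf4 and 0.915 to 2.30 CPM of Neurl1b. For Esam, Flvcr2 and Bend7 it lay above every POA control library. It had 20.08 to 30.05, 4.248 to 6.265 and 3.369 to 5.571 CPM of these, and POA control at most 18.2, 3.948 and 3.2 CPM. For Smtnl2, Ypel1, Smim13, Ankrd9 and Mpv17l MBH control overlapped POA control. Over all 1958 calls the groups did not overlap for 48.1%, against 8.32% of the genes tested. The share was 59.95% of the calls without a regional call and 45.1% of those that followed region. The calls of Esam, Bend7, Neurl1b, Smim13 and Celf4 held in all 10 repeats that left out 1 library. That of Ypel1 held in 7, of Ankrd9 in 4, of Smtnl2 in 3, of Flvcr2 in 2 and of Mpv17l in 1.

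**Figure D5:**
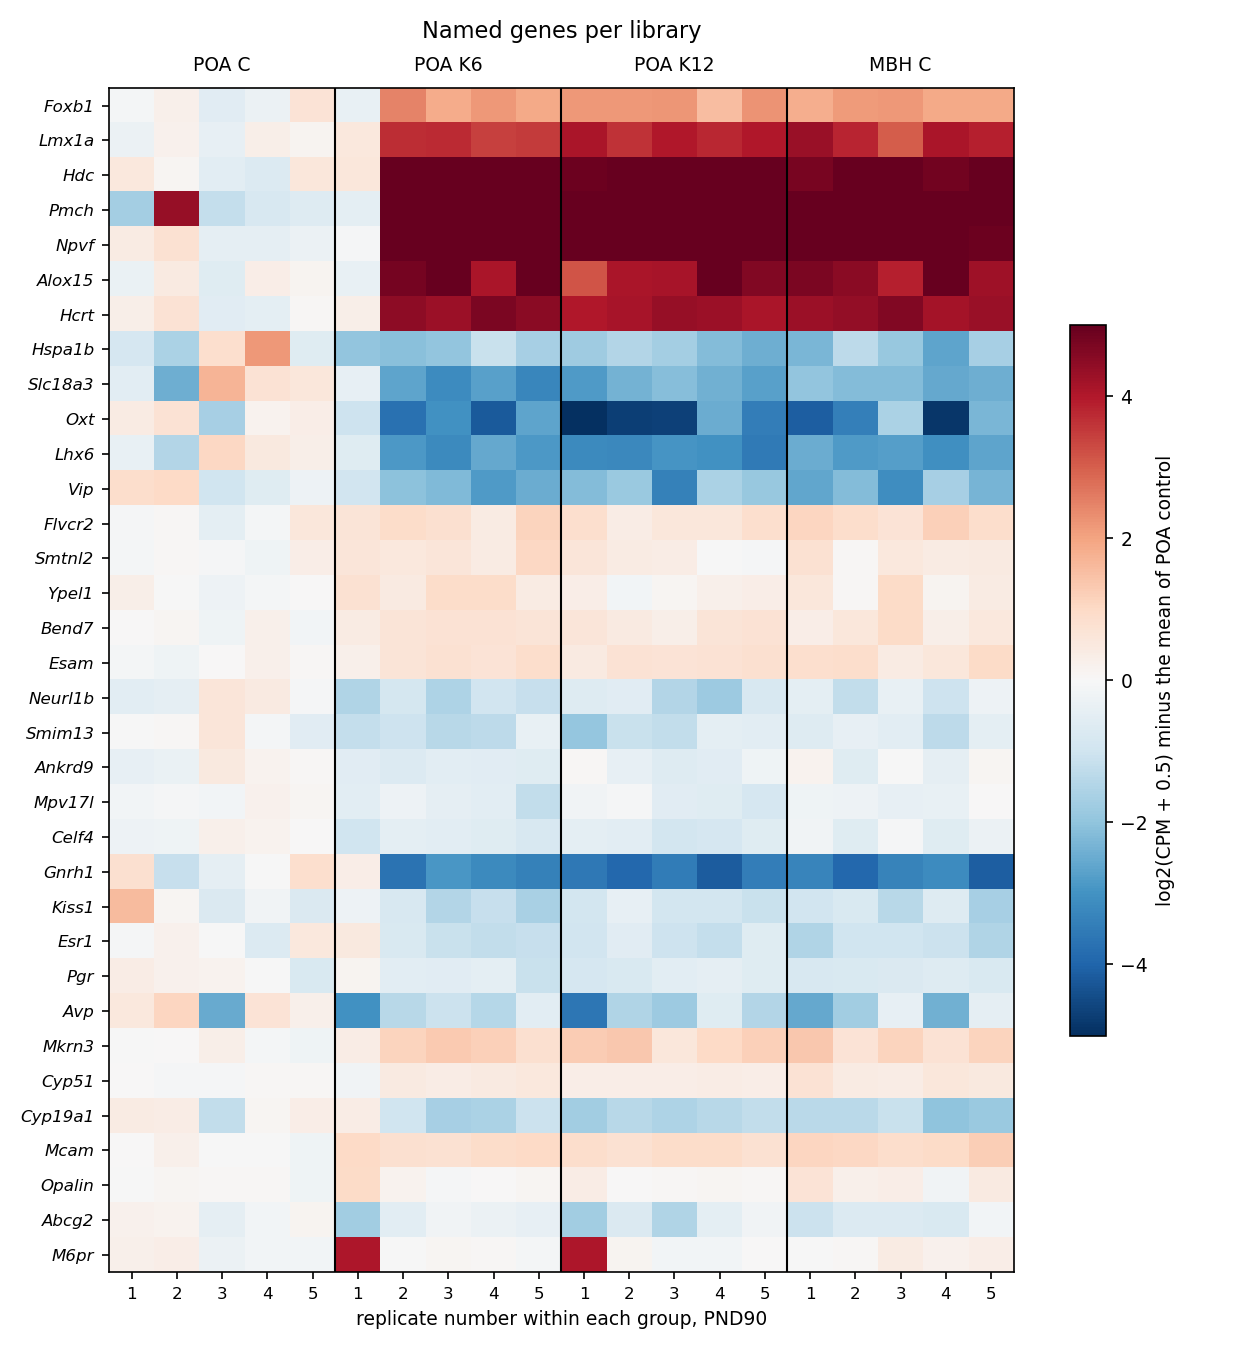
Level of each named gene as log2(CPM + 0.5) less the mean of POA control, per library of POA control, K6 and K12 labelled POA, and MBH control; red is higher, blue is lower, and values beyond 5 have the colour of 5. The column of K6 replicate 1 resembles POA control in the regional genes from Foxb1 to Vip except Hspa1b, and the columns of K6 replicates 2 to 5 resemble the K12 libraries labelled POA and MBH control.

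With the mammillary score of each library as a covariate, 4 of 15352 genes were called (0.0261%), and 1 of the 4, Mcam, was among the 1958. The score separates replicate 1 from the other K6 libraries, so the exposure term of that fit rests largely on replicate 1. Mcam, an adhesion molecule of vessels, stood at 73.2, 63.5, 63.0, 69.0 and 72.7 CPM in K6 and between 31.1 and 44.0 CPM in control, and at 67.1 to 87.2 CPM in MBH control. It rose by 0.86 (SE 0.08, adjusted p = 0.0033). The others were Opalin, a myelin gene, Abcg2, a transporter of brain vessels, and M6pr, a receptor that sorts lysosomal enzymes. Opalin stood at 265 CPM in K6 replicate 1, 132 to 154 CPM in replicates 2 to 5 and 120 to 146 CPM in control. Abcg2 stood at 6.12 CPM in replicate 1 and between 15.7 and 25.4 CPM in control. The MBH library with the same rat number stood at 6.35 CPM of Abcg2, and the other MBH libraries of K6 between 15.5 and 33.4 CPM. The lowest K12 library labelled POA stood at 6.09 CPM of it. M6pr stood at 13.1 CPM in replicate 1 and at most at 0.543 CPM in the other 9 libraries. The MBH libraries of K6 had at most 0.745 CPM of M6pr. M6pr was also called in replicate 1 alone, together with LOC103689961, which stood at 62.0, 0.989, 0.174, 72.8 and 78.5 CPM in K6 and at most 1.21 CPM in control. LOC103689961, a locus name that the rule for named genes leaves out, was also called with all 5 K6 libraries (6.12, SE 1.32, adjusted p = 0.014), with no regional call. It was on in K6 replicate 1 and off in the MBH library with the same rat number. These 5 genes were chosen after their values were seen. M6pr and LOC103689961 were high in libraries of other groups too, with M6pr at 12.8 CPM in 1 of the 5 K3 libraries and LOC103689961 at 88.3 CPM in 1 of the 5 MBH control libraries.

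The neighbouring doses were compared next, in tests that share the K6 libraries with the comparison above. Against K12, none of 14750 genes was called (0%) by edgeR's quasi-likelihood test or by DESeq2, with 391 and 398 genes at an unadjusted p under 0.05. Hdc differed between K6 and K12 by -0.10 (SE 0.52), Lmx1a by -0.61 (SE 0.41), Foxb1 by -0.22 (SE 0.37) and Gnrh1 by 2.83 (SE 0.94), the last with replicate 1 as the only high library of 10. Against K3, 1676 of 14585 genes were called (11.5%), 946 higher and 730 lower in K6. Hdc exceeded K3 by 5.07 (SE 0.72), Pmch by 7.43 (SE 1.18) and Mkrn3 by 1.15 (SE 0.27), and the difference of Oxt was -2.53 (SE 0.54), all called. Without K6 replicate 1 the count was 3877, and without K6 replicate 2 it was 498. The levels of K3 resembled control in the regional transcripts, with Hdc at 3.00 ± 1.42 CPM and Lhx6 at 5.38 ± 2.11 CPM (SD, n = 5), and those of K12 did not, with Hdc at 109.1 ± 12.8 CPM and Lhx6 at 0.416 ± 0.138 CPM.

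Libraries of the 5 K6 rats from the MBH were set against those labelled POA. Here 621 of 14638 genes were called (4.24%), compared with 30.1% between the tissues of D3 rats, and without the K6 replicate 1 labelled POA the count was 1981. With the rat as a block 76 genes were called, and without MBH K6 replicate 2 the count was 23. The 4 regional transcripts were not among the 621: Foxb1 differed by 0.11 (SE 0.39), Lmx1a by 0.49 (SE 0.44), Hdc by -0.30 (SE 0.58) and Pmch by 1.09 (SE 0.78). MBH minus POA in the K6 rats was -5.91 (SE 0.88) for Alox15 and -1.16 (SE 0.24) for Mkrn3, both called. In a comparison chosen after the regional values were seen, the 5 K6 libraries labelled POA against the 5 MBH libraries of control gave no call among 14752 genes (0%) by edgeR's quasi-likelihood test and 3 by DESeq2, with 1127 and 1194 genes at an unadjusted p under 0.05. Without K6 replicate 1 there was again none, with 931.

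The interaction of tissue and exposure over the 20 libraries of K6 and control was called for 5078 of 15120 genes (33.6%), genes for which the difference of K6 from control was not the same in libraries labelled POA and libraries labelled MBH. Of the 5 K6 libraries labelled POA, 4 carry MBH-type transcripts. The interaction was 5.53 for Hdc and 10.9 for Alox15, in the direction of a larger K6 minus control difference in the libraries labelled POA, and 2.40 for Mkrn3. Hdc in the MBH was 81.7 ± 28.2 CPM in K6 and 107.4 ± 26.0 CPM in control, and Mkrn3 was 1.395 ± 0.214 and 3.25 ± 0.736 CPM (SD, n = 5). Mkrn3 in K6 thus had a lower mean than control in the MBH and a higher one in the libraries labelled POA.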

How the data were processed

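Counts of reads per Ensembl gene were deposited by the authors as whole numbers, 1 column per library and 1 table per tissue, without normalization. They had aligned paired reads of stranded poly(A) libraries to Rnor_6.0 with STAR and counted with featureCounts. The strand setting and the treatment of reads that align to several places are not given in the sources used here, so counts of gene copies, overlapping genes and antisense genes are uncertain. Base calls were made with bcl2fastq 2.20 per the labels. Both tables hold 32883 genes, and every column was mapped to a labelled sample (0 were left unmapped).

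Groups came from the labels. Pairs of groups were compared with edgeR 4.0.16 in R 4.3.3 (TMM factors, filterByExpr with a minimum count of 10, two-sided quasi-likelihood test, Benjamini-Hochberg adjustment, called under 0.05), where the study used DESeq2, here 1.42.0, an alternative. SE was taken as the size of the log2 fold change over the root of its F statistic. CPM are before TMM scaling. Axes used log2(CPM + 0.5). On simulated counts for K6 against control (14585 genes), 82% of genes changed by 1 log2 unit were recovered. Of those changed by 2, 100% were recovered, and 10 unchanged genes were called. Whether these rates hold where K6 replicate 1 stands apart from replicates 2 to 5 was not tested. In the measured counts of all 5 K6 libraries, Lhx8 (-2.26) and Chat (-2.47) were not called, whereas Lhx6 (-2.66) and Slc18a3 (-2.77) were.

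Named genes were Foxb1, Lmx1a, Hdc, Pmch, 9 genes of the GnRH, peptide and sterol systems, and, among called genes whose symbol is no locus or clone name and whose average log2 CPM reached 1, the 5 largest per direction that followed region, the 5 largest with no regional call and a regional difference under 0.25, and the 3 largest against region, of which there were none. Of each of the 26 lists, up to 4 members were to be named, and some paragraphs name more called ones. Members, lists and tests were chosen with earlier results of these data known. The alternatives were other normalization, filters, tests, blocks, regional references and left-out libraries; replicate 1 alone, K6 against MBH control and DES references without libraries that stand apart were added after seeing the data. The promoter table matched 10808 of 14693 tested genes by symbol. Some named genes and list members are not reported here. Genome coordinates of the counts were not used here.

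Same-numbered K6 and control libraries did not deviate together (correlations between -0.082 and 0.08), nor did the tissues of a rat (between -0.153 and 0.085), so the main tests had no block. For MBH against POA of the K6 rats, the rat comes from the labels, and with it as a block 76 genes were called in place of 621.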

Additional observations from a re-analysis of the deposited data

Results flagged for a closer look

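K6 replicate 1 stood apart from the other 4 K6 libraries. Its regional axis of -1.93 and its mammillary score of -0.43 lay further from the rest than Dixon's 95% limit for 5 samples (0.71). Among 35 named genes, 19 of 70 group tests passed that limit, and 15 of the 19 singled out K6 replicate 1. Chance flags about 1 in 20 such tests, but many of these genes were chosen as regional markers or for their value in replicate 1, so the count is not set against chance.

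In that library Lmx1a stood at 0.881 CPM, Hdc at 4.11 CPM, Pmch at 4.41 CPM, Hcrt at 1.57 CPM, Bend7 at 3.62 CPM and Cyp51 at 177 CPM, each below the other 4 libraries. Slc18a3 stood at 7.39 CPM, Oxt at 141 CPM, Lhx6 at 4.85 CPM, Vip at 8.08 CPM, Gnrh1 at 17.6 CPM, Esr1 at 36.5 CPM, Cyp19a1 at 5.48 CPM, Opalin at 265 CPM and M6pr at 13.1 CPM, each above them.

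The other 4 departures were Smtnl2 at 3.37 CPM in K6 replicate 5, Pmch at 141 CPM in control replicate 2, Kiss1 at 11.0 CPM in control replicate 1 and Cyp19a1 at 1.48 CPM in control replicate 3. The interaction test found 5078 genes whose difference of K6 from control differed between libraries labelled MBH and libraries labelled POA, of which 4 of the 5 in K6 carry MBH-type transcripts.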

How the results depend on the processing

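K6 against control had 1958 calls. A joint fit of all 7 POA groups gave 1037, of which 866 were among the 1958, and the mammillary covariate, which rests on replicate 1, gave 4, of which 1 was. DESeq2 gave 2844. For that comparison, leaving out 1 library gave 878 (without K6 replicate 3) to 3674 (without K6 replicate 1), and K6 replicate 1 alone gave 2. The other counts ranged over left-out libraries from 3556 to 4782 for MBH against POA of D3 rats, 23 to 1981 for that of K6 rats, 498 to 3877 for K6 against K3 and 4418 to 5915 for the interaction, and stayed at 0 for K6 against K12. For K6 against MBH control, where K6 replicate 1 was the only library left out in turn, the count was 0 again. DESeq2 gave 4883 for D3 rats, 5541 for the interaction, 0 for K6 against K12, 1738 for the MBH against the POA of K6 rats, 2552 for K6 against K3 and 3 for K6 against MBH control.

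With the replicate number as a block, K6 against control gave 1629 calls, K6 against K12 0 and K6 against K3 1431. With the rat as a block, MBH against POA gave 4165 calls in D3 rats and 76 in K6 rats, and the interaction gave 4313. Numbers of K6 and control libraries share no litter or batch in the labels.

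The share of calls that followed region was 79.98%. It was 77.22% with the rat as a block in the D3 reference, 77.83% with D3 rats without MBH replicate 2, 11.49% with D6 rats, 67.26% with D6 rats without POA replicate 2, 7.05% with control rats of PND42, where 14 calls went against region, 50% of 4 calls with the covariate and 0% of the 2 calls of replicate 1 alone. The D6 and PND42 references called 333 and 437 genes in place of 4422, and D6 without that library 3091. Leaving out 1 library gave 73.9 to 85.99%.

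Under the mammillary covariate the change turned sign for Pmch (-2.37), Foxb1 (-0.49), Alox15 (-0.15), Cyp51 (-0.15), Esr1 (0.24), Pgr (0.058) and Cyp19a1 (0.054), none of them called there. Foxb1 and Lmx1a belong to the list behind that covariate. The cause of the other shifts was not tested. Intervals and counts of 0 cover counting error only.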
